A study of Mus musculus with 2 samples.

Results

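The genes described here are the DNA methyltransferases and the TET enzymes of the mouse. They were chosen by symbol and number 8 of the 21911 protein-coding genes of the GENCODE M21 annotation: Dnmt1, Uhrf1, Dnmt3a, Dnmt3b, Dnmt3l, Tet1, Tet2 and Tet3. Open chromatin around them was measured by DNase-seq, in which exposed DNA is cut by DNase I and the cut ends are sequenced, in testis tissue of male B6CASTF1/J mice aged 14 days. This strain is a first-generation hybrid of a C57BL/6 and a castaneus-derived parent. The series has 1 group of 2 libraries and no treated, mutant or older group, so no test between conditions was possible. Replicate 1 is described as tissue of 3 males and replicate 2 is given without a number, and since both share a donor label, an SD over them may measure technical spread only.

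Methylation of cytosine in CpG pairs is copied to the new strand after replication by Dnmt1, which Uhrf1 brings to half-methylated sites. New methylation is laid down by Dnmt3a and Dnmt3b, with Dnmt3l as a cofactor that has no catalytic activity of its own. The TET enzymes oxidise methylcytosine, which opens the way to its removal. In the mouse male germ line most de novo methylation takes place in fetal and newborn germ cells and needs Dnmt3l, while at the age studied here spermatogonia divide and the first cells go through meiotic prophase.

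Each library has a list of peaks, which are stretches where the cut rate passed a false discovery rate (FDR) of 0.05, a list of footprints, which are short protected stretches inside open DNA, and a track of the FDR itself. The peak value is a signal column set by the authors per library, and the number of reads behind it is unknown. The promoter value of a gene is the highest value among peaks that touch a window of 1000 bp on each side of any of its annotated starts, and 0 where no peak does. Such a value cannot tell how many cells of the tissue are open from how open each cell is, nor germ cells from somatic cells. Replicate 1 has 101172 peaks and 269247 footprints, and replicate 2 has 117359 peaks and 349555 footprints. Promoter peaks in both libraries were found at 68.7% of all protein-coding genes. Germ cell markers had them at 6 of 6 genes, with the highest values at Dazl and Sycp3, and Sertoli cell markers at 5 of 5. Leydig cell markers had them at 3 of 4, endothelial markers at 2 of 3 and leukocyte markers at 1 of 4. Liver and epidermis markers had them at 0 of 3 each, and 1 liver marker had a peak in replicate 2 alone. The median promoter value was 7.69 for germ cell, 2.88 for Sertoli cell, 0.621 for Leydig cell and 0.431 for endothelial markers, against 1.36 for all genes.

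Promoter peaks were found in both libraries at 7 of the 8 genes, where 68.7% of all protein-coding genes had them. By library they were found at 7 of the 8 genes in replicate 1 and at 8 of 8 in replicate 2, against 70.2% and 70.5% of all genes. Uhrf1 and Dnmt1 had by far the most accessible promoters of the group, and Dnmt3l had a weak peak in replicate 2 alone. Tet3, Tet2, Dnmt3a, Tet1 and Dnmt3b lay nearer the middle of all genes, at percentiles 59.7, 58.7, 55.8, 51.3 and 47.0. The median promoter value of the 8 genes was 2.53 in replicate 1 and 2.12 in replicate 2 (mean 2.32 ± 0.29, SD over 2 libraries), against 1.42 and 1.30 for all protein-coding genes (mean 1.36 ± 0.089). Against the median of 3.85 over all genes with a peak in both libraries, only Uhrf1 and Dnmt1 were higher.

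Sequences are shown for the peaks the results turn on, 5′ to 3′ on the strand of the gene, from GRCm38.p6 (the build called mm10). This is the C57BL/6 reference, and the castaneus alleles of the hybrid were not analysed here. Capitals mark matches, on either strand, to the motifs searched. At Dnmt1, where the peaks lie over first exons, only short sites are shown. They hold the NRF1 consensus (the capitals of the first and second line), once in each of the main promoter peaks, and the third line joins the second of these sites to a neighbouring E2F consensus, TTTGGCGC.
Dnmt1 first NRF1 site, chr9:20952932-20952959, minus strand: ctccgttgcGCGCATGCGCactcccttc
Dnmt1 second NRF1 site, chr9:20952591-20952618, minus strand: agccagggcGCGCATGCGCggggcagcg
Dnmt1 second NRF1 site with E2F site, chr9:20952583-20952609, minus strand: GCGCATGCGCggggcagcgTTTGGCGC

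The highest promoter peak of the group, at Uhrf1, is CpG-rich and holds GGGCGG boxes (bound by Sp and KLF factors) and CCAAT boxes (bound by NFY).
Uhrf1, chr17:56304081-56304300, plus strand: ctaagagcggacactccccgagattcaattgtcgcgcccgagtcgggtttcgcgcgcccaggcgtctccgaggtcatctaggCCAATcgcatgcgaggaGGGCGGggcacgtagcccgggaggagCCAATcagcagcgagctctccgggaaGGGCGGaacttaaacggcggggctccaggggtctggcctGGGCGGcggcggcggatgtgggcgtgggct

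For Dnmt3a, the peak shown lies just upstream of the internal start that gives the short isoform, Dnmt3a2, a form known from mouse germ cells and embryonic stem cells. The 300 bases are the peak of replicate 1; that of replicate 2 is the last 80 bases, which leave out the GGGCGG box. For Dnmt3l, the stretch shown ends 1 base before the start of transcript Dnmt3l-201 and had no peak in either library.
Dnmt3a internal start, chr12:3891301-3891600, plus strand: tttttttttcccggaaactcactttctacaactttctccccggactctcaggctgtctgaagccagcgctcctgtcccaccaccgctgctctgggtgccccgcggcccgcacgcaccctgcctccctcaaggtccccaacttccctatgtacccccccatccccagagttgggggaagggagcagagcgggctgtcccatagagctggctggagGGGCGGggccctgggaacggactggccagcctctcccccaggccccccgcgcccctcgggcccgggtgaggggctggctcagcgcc
Dnmt3l upstream of Dnmt3l-201, chr10:78049642-78049841, plus strand: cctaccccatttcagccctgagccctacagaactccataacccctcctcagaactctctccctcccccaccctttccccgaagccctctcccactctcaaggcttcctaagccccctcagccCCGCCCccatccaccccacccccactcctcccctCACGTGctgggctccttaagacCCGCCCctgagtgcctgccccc

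Among the TET genes, the highest Tet1 peak is poor in CpG and the highest Tet2 peak is rich in it. The Tet3 peak shown in part has an observed over expected CpG of 0.814 and 0.816 in replicates 1 and 2. The medians over the highest promoter peaks of all open genes were 0.802 and 0.786. The other Tet3 peak of similar height, chr6:83441581-83441820 in replicate 1, has 0.645 and 0.687. CACGTG, the E-box in the Tet3 peak shown, is bound by factors such as MYC and USF.
Tet1, chr10:62865305-62865580, minus strand: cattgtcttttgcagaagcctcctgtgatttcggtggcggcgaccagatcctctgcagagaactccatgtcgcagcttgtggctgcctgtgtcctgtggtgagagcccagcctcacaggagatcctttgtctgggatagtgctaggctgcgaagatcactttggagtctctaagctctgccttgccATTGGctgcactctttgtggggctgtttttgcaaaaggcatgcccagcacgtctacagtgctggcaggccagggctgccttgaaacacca
Tet2, chr3:133544391-133544480, minus strand: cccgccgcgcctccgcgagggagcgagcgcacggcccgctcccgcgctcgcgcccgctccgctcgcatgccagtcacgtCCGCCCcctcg
Tet3, chr6:83456521-83456820, minus strand: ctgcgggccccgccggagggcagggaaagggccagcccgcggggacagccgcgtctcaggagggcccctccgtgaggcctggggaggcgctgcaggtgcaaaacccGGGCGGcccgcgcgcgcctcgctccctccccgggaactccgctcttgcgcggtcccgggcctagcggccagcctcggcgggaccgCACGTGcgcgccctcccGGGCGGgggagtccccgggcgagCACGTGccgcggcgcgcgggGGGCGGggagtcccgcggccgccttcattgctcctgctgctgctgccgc

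**Figure D1:**
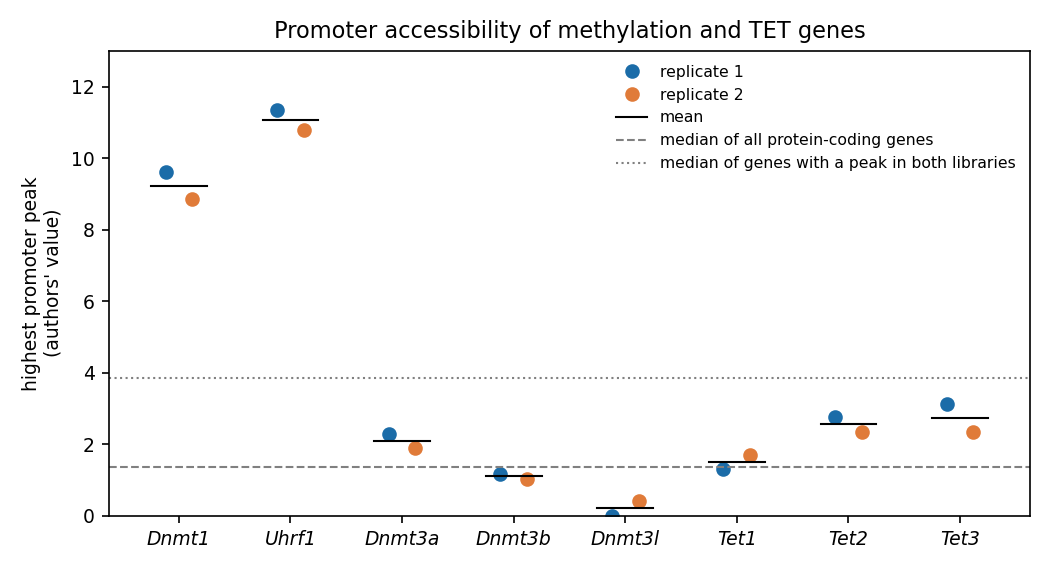
Promoter value (the authors' value of the highest promoter peak, vertical axis) of each of the 8 genes in replicates 1 and 2 (points), with their mean (line); the dashed and dotted lines mark the medians of all protein-coding genes and of genes with a peak in both libraries. Uhrf1 and Dnmt1 stand at 11.1 and 9.23 on average, and the other genes lie at or below 2.73.

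Uhrf1 (ENSMUSG00000001228.14, chr17:56303321-56323486, plus strand), the reader of half-methylated CpG, had a promoter value of 11.3 and 10.8 in replicates 1 and 2 (mean 11.1 ± 0.40, SD, n = 2). It ranked 2243rd of all protein-coding genes, at percentile 89.8. Both libraries placed this peak at exactly the same 220 bp, chr17:56304081-56304300, in an intron of the longer transcripts and just upstream of the start of Uhrf1-202 at 56304313. Observed over expected CpG in it was 1.03, against a median of 0.802 and 0.786 in the highest promoter peaks of all open genes in replicates 1 and 2. A smaller peak, of 2.44 and 2.77, covered the farthest upstream start at 56303321. The starts at 56312663 and 56318026, which belong to non-coding transcripts, had no peak in either library.

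Dnmt1 (ENSMUSG00000004099.16, chr9:20907209-20959888, minus strand), the maintenance methyltransferase, had a promoter value of 9.61 in replicate 1 and 8.85 in replicate 2 (mean 9.23 ± 0.54), at percentile 85.4. The peak again had identical limits in both libraries, chr9:20952821-20953040, and lay across the start of Dnmt1-201 at 20952979. A second peak inside the same cluster of starts had values of 3.94 and 3.15. The lowest FDR in the promoter windows was 1.19e-144 and 2.08e-139, the lowest of the 8 genes in both libraries. Mouse Dnmt1 is known to use different first exons in oocytes, spermatocytes and somatic cells. The farthest upstream annotated start, at 20959888 (Dnmt1-202), had no peak and no base below an FDR of 0.05 in either library, and observed over expected CpG around it was 0.0588.

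Dnmt3a (ENSMUSG00000020661.15, chr12:3806007-3914443, plus strand), a de novo methyltransferase, had a promoter value of 2.28 in replicate 1 and 1.89 in replicate 2 (mean 2.09 ± 0.28), at percentile 55.8. Its promoter windows held 8 and 7 peaks, with 1 of those in replicate 1 nested inside another, and 2973 and 2896 bp below an FDR of 0.05. With 18 starts these windows cover 21.8 kb, against 6.05 to 14.2 kb for the other 7 genes, so its counts of peaks and footprints come from more DNA. The highest of these peaks was 660 bp long in replicate 1 (chr12:3807761-3808420) and 520 bp in replicate 2 (chr12:3807941-3808460), in the intron behind the first cluster of starts. Since it lies near the edge of the window, the promoter value of Dnmt3a was 1.47 with windows of 500 bp. The start of the short isoform, annotated at 3891728 to 3891744, had a peak of its own, of 1.13 and 1.08 (mean 1.10 ± 0.035). Thus the windows of the long-isoform starts held the higher value in both libraries, without overlap between the libraries' values. That value comes from the intronic peak near the window edge. With windows of 500 bp the highest values at the long-isoform starts were 1.75 and 1.20, closer to those of the short isoform.

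Dnmt3b (ENSMUSG00000027478.15, chr2:153649450-153687730, plus strand), the other de novo methyltransferase of the group, had a promoter value of 1.17 in replicate 1 and 1.02 in replicate 2 (mean 1.10 ± 0.11), at percentile 47.0. The peak lies on its cluster of 10 coding transcripts and has an observed over expected CpG of 1.28 in replicate 1 and of 0.988 in replicate 2, where it is called longer. The Dnmt3b promoter was thus open in both libraries but below the median of all genes.

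Dnmt3l (ENSMUSG00000000730.13, chr10:78041947-78063622, plus strand), the cofactor of de novo methylation, had a promoter value of 0 in replicate 1 and 0.415 in replicate 2, at percentile 30.3. In mice it is known for high levels in prospermatogonia around birth and in growing oocytes. The replicate 2 peak, chr10:78054781-78054840, is 60 bp long, has a lowest FDR of 0.0123, is missing from the shorter list of peaks (FDR below 0.001) and lies at percentile 38.2 of the peaks of that library. It stands at the start of a transcript with a retained intron, Dnmt3l-207. The start region there, at 78054835 to 78055335, holds 4 transcripts, of which 3 are coding. The starts at 78041947 to 78042287 and at 78049842 to 78049959 had no peak and no base below an FDR of 0.05 in either library. A stronger peak, of 1.68 in replicate 1 and 1.21 in replicate 2, lay 1.27 and 1.26 kb downstream of the start at 78042287, outside the Dnmt3l windows and inside a promoter window of the neighbouring gene Aire, and with windows of 2500 bp it raised the Dnmt3l value to 1.44.

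Tet1 (ENSMUSG00000047146.17, chr10:62804570-62908996, minus strand) had a promoter value of 1.30 in replicate 1 and 1.70 in replicate 2 (mean 1.50 ± 0.28), at percentile 51.3. It was the only one of the 7 genes with a promoter peak in both libraries that was higher in replicate 2, by 0.38 on the log2 scale, where the median over all open genes was -0.07. This peak is at an internal start of a non-coding transcript (Tet1-202, 62865304), with an observed over expected CpG of 0.241 and 0.295 inside the peak. The coding starts at 62887324 to 62887512 had a weaker peak, of 0.898 and 0.596 (mean 0.747 ± 0.21). The starts farther upstream, at 62908996, 62899118 and 62892986, had no peak in either library.

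Tet2 (ENSMUSG00000040943.12, chr3:133463679-133545139, minus strand) had a promoter value of 2.77 in replicate 1 and 2.34 in replicate 2 (mean 2.56 ± 0.30), at percentile 58.7. Its peaks fell on the single cluster of starts at 133544286 to 133545139, and none of its 5 downstream start regions had a peak. Tet3 (ENSMUSG00000034832.15, chr6:83362373-83459084, minus strand) had a promoter value of 3.12 in replicate 1 and 2.35 in replicate 2 (mean 2.73 ± 0.54), at percentile 59.7. Tet3 had 2 promoters of similar height. The start at 83456392 had values of 3.11 and 2.35 (mean 2.73 ± 0.54) and the starts at 83441632 to 83441678 had 3.12 and 2.07 (mean 2.60 ± 0.74), so the higher of them was a different one in each library and the difference was within the spread. The farthest upstream start, at 83459084, had no peak.

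In the order of mean promoter values, Uhrf1, Dnmt1, Tet3, Tet2, Dnmt3a, Tet1, Dnmt3b and Dnmt3l, the values of neighbours overlapped between the libraries only for Tet3 and Tet2. The gap between Tet2 (2.34 in replicate 2) and Dnmt3a (2.28 in replicate 1) was smaller than the SD of either gene. The order depends on the starts and windows used: with windows of 500 bp Dnmt3a had 1.75 and 1.20 (mean 1.47), below the mean of Tet1 and overlapping it, and with coding starts alone, an alternative chosen after seeing the data, Tet1 had a mean of 0.747, below Dnmt3b.

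Starts less than 1000 bp apart were joined into start regions, of which the 8 genes have 39. A peak in both libraries was found at 11 of them, which is 28.2%, where 38.2% of the start regions of all protein-coding genes had one, and 27 had none in either library. Of the 25 regions with a coding transcript 10 had a peak in both libraries, and of the 14 without one 1 had, that of Tet1-202. Observed over expected CpG within 500 bp of the first start had a median of 0.546 in the open regions (range 0.163 to 0.830) and of 0.212 in those with no peak (range 0 to 0.631). The ranges overlap: the start of Tet1-201 at 62880014 had no peak at a CpG value of 0.631, and that of Dnmt3a-211 at 3866191 had weak peaks of 0.516 and 0.630 at 0.163. Where the outermost 5′ end of each gene alone was used, 4 of the 8 genes had a peak in both libraries, against 64% of all genes, since the peaks of Dnmt1, Tet1 and Tet3 lie at starts inside the annotated gene.

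**Figure D2:**
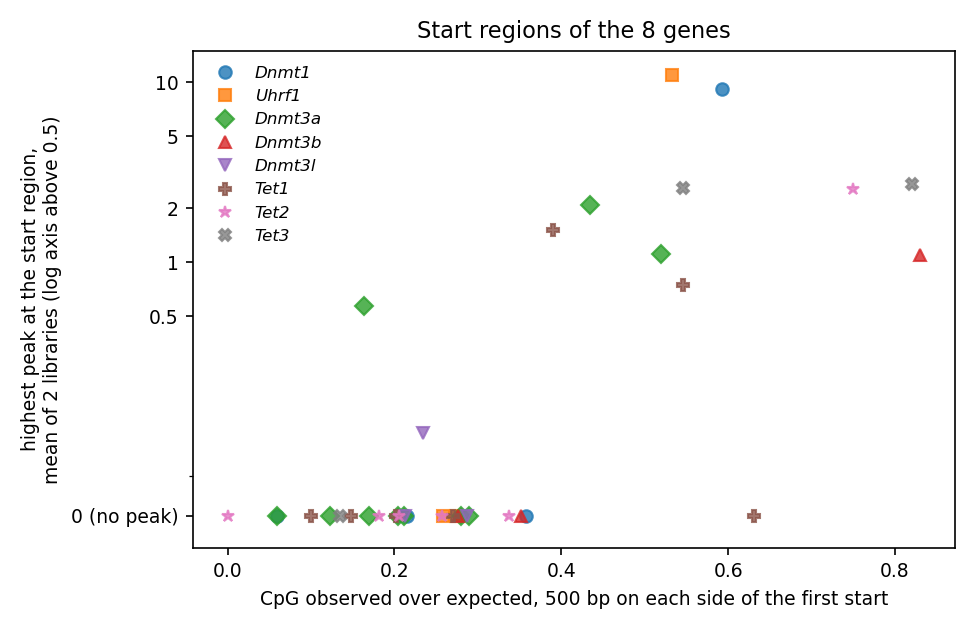
Mean peak value of the 2 libraries at each of the 39 start regions (vertical axis, logarithmic above 0.5, 0 for no peak) against observed over expected CpG around the first start (horizontal axis), with a symbol per gene. Start regions with no peak lie mostly at low CpG values, with medians of 0.546 for open regions and 0.212 for those with no peak.

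Footprints in the promoter peaks of the 8 genes numbered 95 in replicate 1 and 109 in replicate 2. That is 1.48 and 1.56 per 100 bp, against 1.29 and 1.38 in the promoter peaks of all protein-coding genes. Of these footprints 65.3% in replicate 1 and 52.3% in replicate 2 overlapped a footprint of the other library. Among all footprints, in promoter peaks or elsewhere, 58.2% and 44.1% did. The share over the promoter peaks of all genes alone was not taken. Dnmt3a had the most footprints, 29 and 28, then Tet3 with 22 and 25, and Dnmt3l had 0 and 1.

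At Dnmt1, both NRF1 sites lay inside footprints in both libraries. Around the site at chr9:20952941-20952950 the footprints spanned chr9:20952936-20952957 in replicate 1 and chr9:20952934-20952958 in replicate 2, and the site at chr9:20952600-20952609 lay in footprints of 31 and 34 bp. The second of these also reached the E2F consensus beside it, fully in replicate 2 and in part in replicate 1. These were the only NRF1 matches in promoter peaks of the 8 genes. Of the highest promoter peaks of all genes, 2.11% and 2.02% held the NRF1 consensus, and 99.7% and 98.3% of these sites overlapped a footprint. Being footprinted therefore does not set the site in the highest Dnmt1 peak apart, while holding the consensus there is uncommon. The consensus TTTGGCGC was in 0.912% and 0.908% of the highest promoter peaks of all genes, and 66.2% and 66.4% of its sites there overlapped a footprint. The second NRF1 site and the E2F site beside it lie in the weaker Dnmt1 peak, and no such shares were taken over weaker peaks. This weaker Dnmt1 peak holds a further TTTGGCGC at chr9:20952538-20952545, which had no footprint in replicate 1 and was partly covered in replicate 2. The other E2F consensus, TTTCCCGC, was found at Uhrf1, at chr17:56303398-56303405 in its smaller peak. It lay wholly inside the peak in replicate 1 alone, had no footprint in replicate 1 and was partly covered in replicate 2.

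In the Uhrf1 peak, the GGGCGG boxes at chr17:56304180-56304185 and chr17:56304271-56304276 and the CCAAT box at chr17:56304206-56304210 touched a footprint in both libraries, while the GGGCGG box at chr17:56304232-56304237 and the CCAAT box at chr17:56304163-56304167 did so in neither. In the highest promoter peaks of the 8 genes 7 of 13 GGGCGG boxes touched a footprint in replicate 1 and 13 of 19 in replicate 2, which is 53.8% and 68.4%, against 61.3% and 65.9% in the highest promoter peaks of all genes. Of the CCAAT boxes there, 3 of 6 and 3 of 5 did, against 42.4% and 44.9%. These shares rest on few boxes and lie on both sides of the background. The box is common, in 63.7% and 61.9% of the highest promoter peaks, as is CCAAT, in 32.7% and 33.1%. At Tet1 the single CCAAT box of the highest peak, at chr10:62865390-62865394 and read as ATTGG on the strand shown, touched a footprint in both libraries. Over the promoter peaks of either library at the 8 genes, the weaker ones included, 3 of 15 CCAAT boxes did in replicate 1 and 5 in replicate 2. Of the 46 GGGCGG boxes in the same peaks, 19 did in replicate 1 and 23 in replicate 2. Some of these boxes lie outside the peaks of the library counted. No such shares were taken over the weaker peaks of all genes. At Tet3 the E-box at chr6:83456624-83456629 touched a footprint in both libraries and that at chr6:83456584-83456589 in replicate 2 alone. Of the E-boxes in the highest promoter peaks of all genes 41.7% and 45.6% did. The other E-boxes, 1 each at Tet1 and Tet2, touched a footprint in neither library at Tet2 and in replicate 2 alone at Tet1. The single ETS match (CCGGAAG) in the promoter peaks of the 8 genes, at Dnmt3a (chr12:3807437-3807443), touched a footprint in neither library. No match to the CRE (TGACGTCA), YY1 (AAGATGGCG), CTCF or DMRT1 consensus was found in these peaks.

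**Figure D3:**
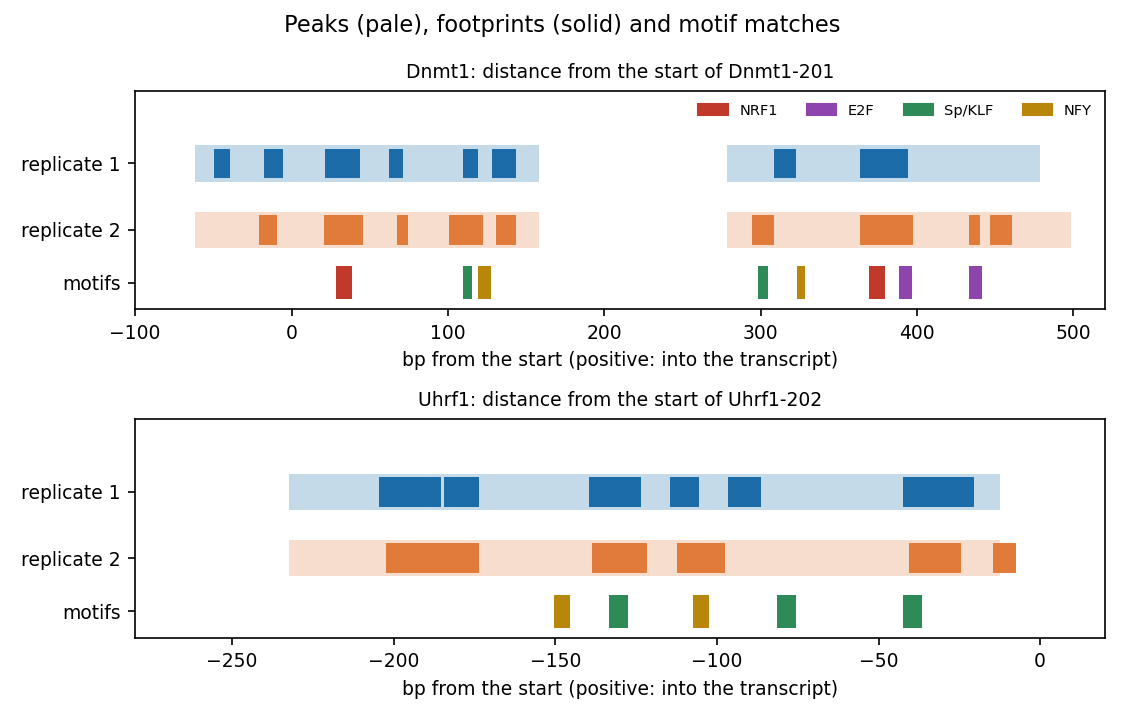
Peaks (pale bars), footprints (solid bars) and matches to the NRF1, E2F, Sp/KLF and NFY motifs (lowest row) at the Dnmt1 and Uhrf1 promoters in replicates 1 and 2, by distance in bp from the start of Dnmt1-201 and Uhrf1-202. Both NRF1 matches of Dnmt1 sit under footprints in each library, in the peaks of 9.61 and 8.85 and of 3.94 and 3.15.

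Distal peaks, within 50 kb of a start and outside the promoter windows of all protein-coding genes, numbered 76 in replicate 1 and 79 in replicate 2 over the 8 genes, and 63 of each overlapped a peak of the other library. That is 82.9% and 79.7%, against 82.0% and 68.5% of the distal peaks of all protein-coding genes. The median gene of the group had 9 ± 1.4 of them (n = 2 libraries), against 4 for all protein-coding genes. The distance is taken from any start, so a gene whose starts are spread out is searched over more DNA, and the part of this in the counts was not tested. Dnmt3a had 20 and 18 distal peaks, at percentile 98.9 of all genes, Dnmt3b 11 and 13, Tet3 11 and 13, Uhrf1 7 and 12, Dnmt3l 8 and 8, Dnmt1 8 and 6, Tet2 6 and 5, and Tet1 5 and 4.

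The strongest distal peak lay 30.7 kb downstream of the nearest Dnmt1 start, inside the gene Angptl6. That start, at 20908979, belongs to a non-coding transcript (Dnmt1-204) and had no peak in either library. The open Dnmt1 starts, at 20952605 to 20952979, lie farther away. The peak falls within the distance limit for Dnmt1 through the start of Dnmt1-204 alone. It had values of 17.3 (chr9:20878141-20878460) and 14.1 (chr9:20878081-20878480), above every promoter peak of the 8 genes, and an observed over expected CpG of 1.01 and 0.988. Which gene it acts on was not tested. Upstream of Dnmt3a a peak at 14.0 kb, chr12:3791881-3792060 in replicate 1, had 5.04 and 4.93, which is above the promoter of Dnmt3a itself in both libraries. A second, 24.3 kb upstream in the gene Dtnb, had 2.23 and 1.74, and an intronic one, chr12:3871761-3871960 in replicate 1, had 1.56 and 1.76.

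Dnmt3b had no distal peak in its own introns. Its strongest, 39.7 and 39.8 kb upstream, had 2.39 and 2.08, again above its promoter in both libraries. On the other side 4 peaks in replicate 1 and 5 in replicate 2 lay within Dnmt3c (chr2:153696652-153729907), a rodent methyltransferase that methylates young transposons in the male germ line and was named after its values were seen. The promoter windows of Dnmt3c itself, of 1000 bp on each side of a start, held no peak in either library. A peak at chr2:153694581-153694760, of 1.08 in replicate 1 and 0.898 in replicate 2, lay outside these windows and upstream of Dnmt3c.

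Dnmt3l had distal peaks at 23.0 kb upstream (1.73 and 1.30) and at 13.6 kb upstream (1.22 and 0.985) in both libraries. Tet3 had an intronic peak, chr6:83443481-83443680, of 2.06 and 2.20, which lies 1.90 kb upstream of the start of its inner promoter. Tet2 had one of 1.28 and 1.32 at chr3:133516261-133516420, 27.9 kb inside the gene. The distal peaks of Tet1 reached at most 0.506, at percentile 49.9 of the peaks of its library, and those of Uhrf1 at most 1.03, at percentile 78.0.

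**Figure D4:**
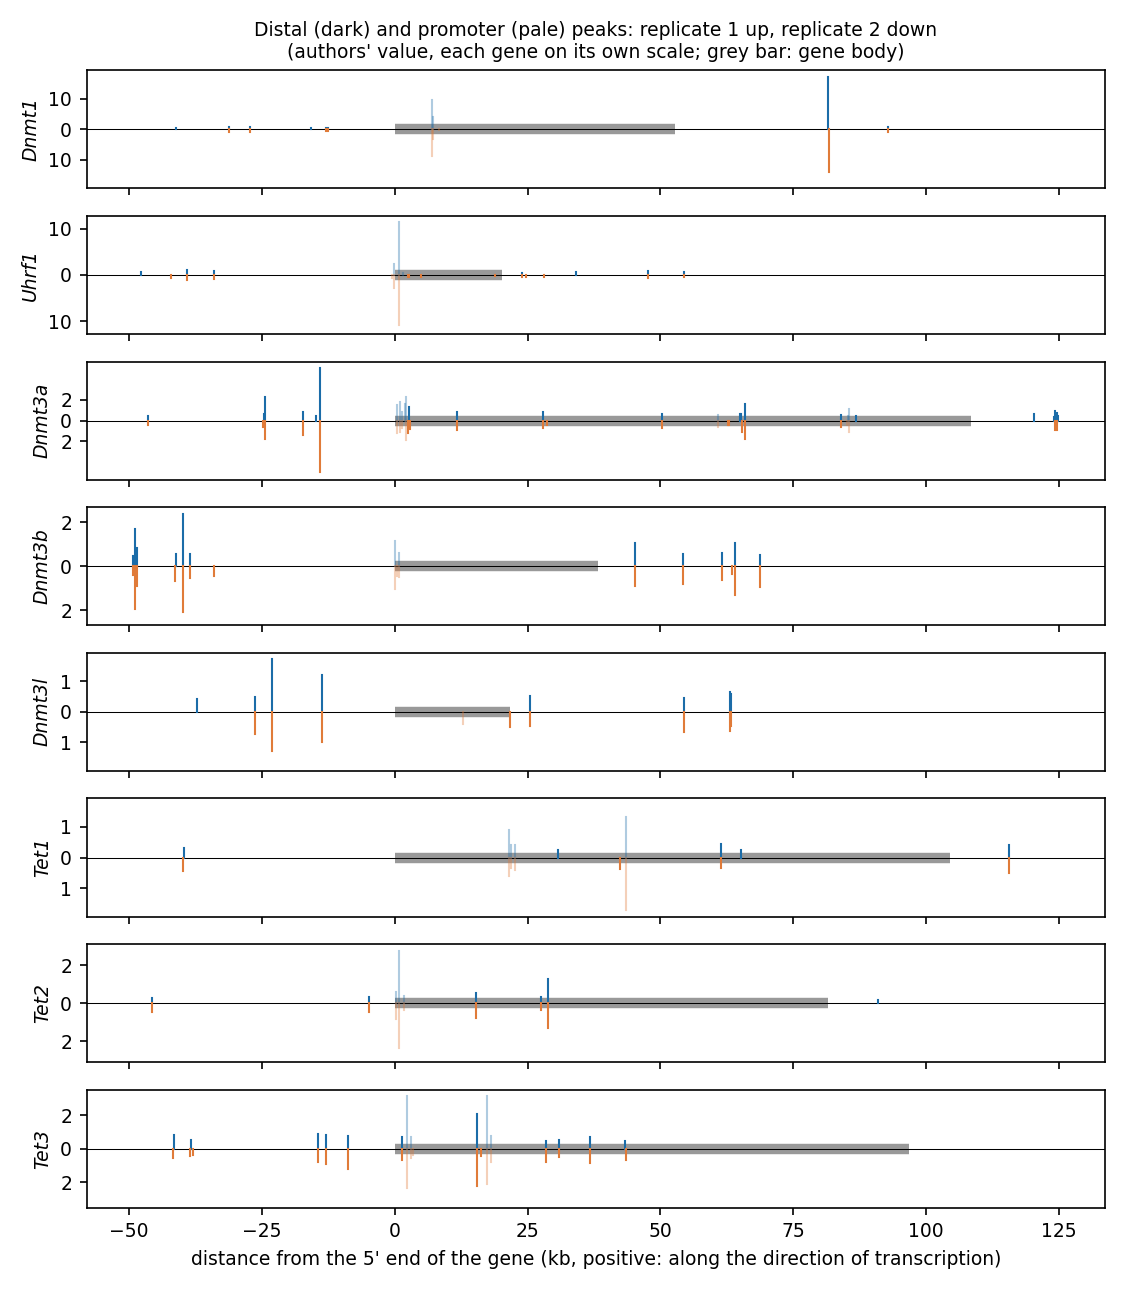
Distal peaks (dark) and promoter peaks (pale) of the 8 genes by distance in kb from the 5′ end of the gene, with replicate 1 upwards and replicate 2 downwards; the vertical axis is the authors' value on a scale of its own for each gene, and the grey bar is the gene body. The tallest line is the peak of 17.3 and 14.1 beyond the 3′ end of Dnmt1, and the upstream peak of Dnmt3a at 5.04 and 4.93 exceeds its promoter peaks.

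Genes that work with these enzymes were set beside them in lists, to be read against the 68.7% of all protein-coding genes with a promoter peak in both libraries and the median promoter values of 1.36 over all genes and 3.85 over those with such a peak. All 10 methyl-CpG readers had one, with a median promoter value of 8.99 ± 2.0 (SD, n = 2). The highest were Mbd3 at 22.2 ± 1.8, a subunit of the NuRD complex, and Mbd4 at 15.3 ± 0.34, a DNA glycosylase whose peak is shared with Ift122. Of the genes of TET cofactors and base excision repair, 19 of 19 had a peak in both (median 3.97 ± 0.37), led by Gadd45b at 14.9 ± 1.0 and the repair scaffold Xrcc1 at 13.4 ± 0.11, which shares its peak with Pinlyp.

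Among the genes that guide de novo methylation in the germ line, many of them in the piRNA pathway, 12 of 12 had a peak in both libraries (median 5.71 ± 0.30). The highest were Kdm1b at 15.4 ± 2.0, a histone demethylase whose peak is shared with Tpmt, and Setd2 at 11.0 ± 0.21, a histone H3K36 methyltransferase. Of the partners of maintenance and imprint protection 14 of 15 did (median 5.93 ± 0.54), led by Pcna at 12.1 ± 0.78, the sliding clamp of replication, and Uhrf2 at 10.5 ± 1.4, a relative of Uhrf1. Dppa3, which guards methylation in the early embryo, had no peak in either. The medians of all 4 lists were above the 2.32 of the 8 genes.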

How the data were processed

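DNase-seq of 2 libraries of 14-day testis was taken as deposited, on mm10 per the labels. Peak values are a signal column set by the authors, in whole multiples of 1 step per library (0.00538 and 0.00377, all values below 1 within 0.05 steps). For the meaning of a step, the aligner and both callers, the sources used here give nothing. The authors deposited an FDR track that lists q-values below 0.05 only, and the p-value column of the deposited footprints holds the threshold 0.01 in each row. Per the deposited text descriptions, each file was made from its own library. The longer peak lists (FDR below 0.05) were used, and the shorter ones (FDR below 0.001) as an alternative.

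Promoter windows reached 1000 bp on each side of each GENCODE M21 start, with an overlap of at least 1 bp. The motifs searched were TTTGGCGC and TTTCCCGC for E2F, GGGCGG for Sp/KLF, CCAAT for NFY, CCGGAAG for ETS, TGACGTCA for CRE, CACGTG for the E-box, AAGATGGCG for YY1, and the consensus of NRF1, CTCF and DMRT1. They were searched on both strands, and a site counted as footprinted where it overlapped a footprint; overlapping matches were each counted. Named genes are the 8 members, and per list the 2 with the highest mean promoter value and up to 3 by alphabet with no promoter peak; per marker list the same rule held, and Angptl6, Dtnb, Aire, Dnmt3c, Ift122, Pinlyp and Tpmt were named after their values were seen. The members and lists were chosen with earlier results of these data known. Values are per library with mean ± SD (n = 2); no test was made, as there is 1 group. Scripts ran in Python 3.11.15 with numpy 2.4.6 and matplotlib 3.10.9 and were tested on simulated peaks.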

Additional observations from a re-analysis of the deposited data

How the results depend on the processing

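Promoter peaks in both libraries were found at 7 of the 8 genes, and at 7 or 8 in each alternative tried except the outermost 5′ end alone, which left 4 genes and a median promoter value of 0.549 in place of 2.32. Over the other alternatives 61.4% to 71.7% of all genes had such a peak. The 77.5 distal peaks (mean of the libraries) became 35.5 within 20 kb, 121.5 within 100 kb, 49 with the shorter peak lists and 51.5 with peaks at or above the library median. Outside promoter windows of 2500 bp there were 56.5. Leaving out a library gave 7 to 8 genes, medians of 2.12 to 2.53, 76 to 79 distal peaks and 95 to 109 footprints. Single promoter values moved for Dnmt3a (1.47 with windows of 500 bp or the 5′ end alone, 1.74 with peak midpoints), Dnmt3l (1.44 with windows of 2500 bp), Dnmt1, Tet1 and Tet3 (0 at the 5′ end alone), and for Tet1 with coding starts alone (0.747), an alternative chosen after seeing the data. The 5′ end setting removes inner starts by construction. No paired analysis was possible because there is 1 group. The number of reads is unknown, so the absence of a peak says only that none passed the FDR limit in that library.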
